A study of Danio rerio with 14 samples.

Results

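Keratins, claudins and the proteins of desmosomes were followed in zebrafish embryos with and without a working ahrra gene, after a brief exposure to a dioxin or its carrier. The members are all genes of the count tables whose symbol starts with krt, cyt1, cldn, evpl, ppl, dsp, dsc2, dsg2, pkp, jup, tp63 or agr2, with krt94 (ENSDARG00000044975) and cyt1 (ENSDARG00000092947) fixed by their identifiers and krtcap genes left out. Of 32105 genes listed, 79 matched and 72 had 10 or more counts in 3 or more libraries: 19 keratins, 37 claudins, 6 plakins and desmosomal cadherins, 8 armadillo proteins, and the pair AGR2 and TP63. Claudins are counted by symbol, so their number and sums include CLDND1 and cldnd1a, which are named for a claudin domain. The 7 left out were cldng, cldnd, krt95, krt93, krt18a.2, cldn10e and CLDN8. Just inside the limit stood cldn23l, with 10 or more counts in 3 libraries, and just outside it cldng, with 10 or more in 2. cldn23l did not pass the filter of the test, so 71 members were tested.

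Keratins are the intermediate filament proteins of epithelial cells, built as pairs of a type I and a type II chain. Desmosomes fasten these filaments to the cell border: desmocollins and desmogleins are the cadherins that reach the next cell, plakoglobin and plakophilins are armadillo proteins that bind the cadherin tails, and desmoplakin, a plakin, ties them to keratin. Claudins form the strands of tight junctions and set which ions pass between epithelial cells. The skin of the zebrafish embryo, an outer periderm over basal keratinocytes with ionocytes and mucous cells among them, uses all of these, and other claudins and keratins belong to the gut, vessels, glia and other tissues.

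Unstranded TruSeq libraries were made from total RNA of embryos at 72 h post-fertilization (hpf) of wild type or of an ahrra-null line made with zinc finger nucleases, all given as the Tupfel longfin strain. The product of ahrra normally represses the aryl hydrocarbon receptor (AHR), to which the dioxin TCDD binds. All embryos were treated at 6 hpf for 1 h, either with 0.01% DMSO as carrier or with 2 nM TCDD, rinsed, and kept in clean medium until sampling. There were 3 libraries of wild type with DMSO (replicates 2 to 4), 3 of wild type with TCDD (replicates 6 to 8), 4 of ahrra-null with DMSO (replicates 9 to 12) and 4 of ahrra-null with TCDD (replicates 13 to 16). The labels give neither the clutch nor the number of embryos behind a library. The p-values therefore reflect the spread among these libraries alone, and this may be technical.

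Libraries held 16.9 to 23.1 M counts (M for mega). The transcript of ahrra itself ranged from 0.612 to 1.39 CPM (read counts scaled to library depth, with TMM factors) in wild type with DMSO and from 0.879 to 1.42 CPM in ahrra-null with DMSO. With TCDD it ranged from 14.1 to 20.5 CPM in wild type and from 21.1 to 54.5 CPM in ahrra-null, so its level does not check the genotype labels. CYP1A1, the usual readout of AHR activation, ranged with DMSO from 5.56 to 8.06 CPM in wild type and from 3.35 to 4.78 CPM in ahrra-null. With TCDD it ranged from 1011 to 1553 CPM in wild type and from 465 to 1103 CPM in ahrra-null. Libraries with DMSO and with TCDD did not overlap. The lines did not overlap with DMSO and overlapped with TCDD. Unless stated otherwise, values are CPM, differences are log2 fold changes ± SE from edgeR's quasi-likelihood test, and adjusted p-values are Benjamini-Hochberg values over 21606 genes. A gene was called at an adjusted p under 0.05. CPM are not corrected for transcript length, so levels are compared between libraries and not between genes.

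Keratins together took 1.16% to 1.37% of the counts of a group. Their summed level was 14458, 13770.0 and 11657 CPM in wild type with DMSO, 11178, 11832 and 10995 CPM in wild type with TCDD, 13845, 12032, 12918 and 16472 CPM in ahrra-null with DMSO, and 14988, 13889, 12585 and 13277 CPM in ahrra-null with TCDD. The wild-type TCDD libraries were the lowest as a group and lay below every ahrra-null library, as did wild-type DMSO replicate 4. The highest wild-type TCDD library lay above that replicate, so the wild-type groups overlapped. krt4, a type II keratin of the outer skin layer, gave 47.1% of the keratin CPM, krt5 gave 15.3% and krt1-19e gave 11.3%, and such a sum therefore follows a few genes. The 37 claudins summed to 768 ± 40.1 (SD, n = 3), 814 ± 11.5 (SD, n = 3), 704 ± 35.4 (SD, n = 4) and 776 ± 44.9 CPM (SD, n = 4) in the same order of groups. The 6 plakins and desmosomal cadherins lay between 301 and 380 CPM and the 8 armadillo proteins between 242 and 271 CPM in every library. In whole-embryo RNA, fewer cells of a type and less RNA per cell cannot be told apart.

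Replicates were close for most members. Among the 64 tested members with a mean of 1 CPM or more, the ratio of the highest to the lowest library of a group had a median of 1.23 in wild type with DMSO, 1.11 in wild type with TCDD, 1.22 in ahrra-null with DMSO and 1.25 in ahrra-null with TCDD. The widest spreads were those of cldn15la in wild type with DMSO (2.17), of krt17 in ahrra-null with DMSO (2.57) and of CLDN23 in wild type (1.72) and ahrra-null (2.67) with TCDD.

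TCDD lowered krt94, a keratin gene, in both lines, and few other members passed the test. In wild type 1 of 71 members was called (1.41%), beside 0.856% of all genes tested, and it was lower, as were 0.375% of all genes (0.481% were higher). In ahrra-null 3 of 71 were called (4.23%), beside 1.18% of all genes, with 2 higher (0.815% of all genes) and 1 lower (0.361%). These shares rest on 1 and 3 genes. None of the 4 calls reached 2-fold. Over all genes, 53 of 185 calls in wild type and 44 of 254 in ahrra-null did, which is 0.245% and 0.204% of all genes tested. No plakin, desmosomal cadherin or armadillo protein passed the test with TCDD in either line, and neither did AGR2 or TP63.

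krt94 measured 47.7, 46.9 and 35.7 CPM in wild type with DMSO and 22.0, 26.5 and 26.2 CPM with TCDD. In ahrra-null it measured 37.4, 35.6, 41.4 and 37.4 CPM with DMSO and 24.0, 23.1, 26.7 and 19.3 CPM with TCDD. Every TCDD library lay below every DMSO library, across both lines. The log2 fold change was -0.81 ± 0.12 in wild type (adjusted p = 0.00109) and -0.70 ± 0.10 in ahrra-null (adjusted p = 0.000985), and the call held in all 12 and all 14 alternatives. The difference between the lines was 0.10 ± 0.15 (adjusted p = 0.983), with a 95% interval from -0.20 to 0.40.

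krt99, a keratin gene that lies near krt94, went the other way. It measured 1.70, 1.63, 1.37 and 1.60 CPM in ahrra-null with DMSO and 3.53, 3.44, 3.14 and 2.08 CPM with TCDD, a rise of 0.95 ± 0.22 (adjusted p = 0.0288). In wild type it measured 5.33, 3.67 and 2.92 CPM with DMSO and 5.77, 6.04 and 8.46 CPM with TCDD, a difference of 0.76 ± 0.19 that missed the threshold (adjusted p = 0.0729). In each line all TCDD libraries lay above all DMSO libraries. The call in ahrra-null was lost in 8 of 14 alternatives, among them leaving out any of replicates 9 to 15, with adjusted p up to 0.124.

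cldn7b, a claudin of surface and other epithelia, was also called higher in ahrra-null. It measured 55.2, 52.7, 49.6 and 54.9 CPM with DMSO and 74.2, 60.7, 59.3 and 60.5 CPM with TCDD, a rise of 0.26 ± 0.07 (adjusted p = 0.0487). Replicate 13 stood above the other 3 TCDD libraries, and without it the difference was 0.18 (adjusted p = 0.223). The call was lost in 8 of 14 alternatives. In wild type, cldn7b measured 57.1, 60.5 and 52.1 CPM with DMSO and 68.6, 69.3 and 67.4 CPM with TCDD (0.28 ± 0.08, adjusted p = 0.0988). The groups did not overlap in either line.

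**Figure D1:**
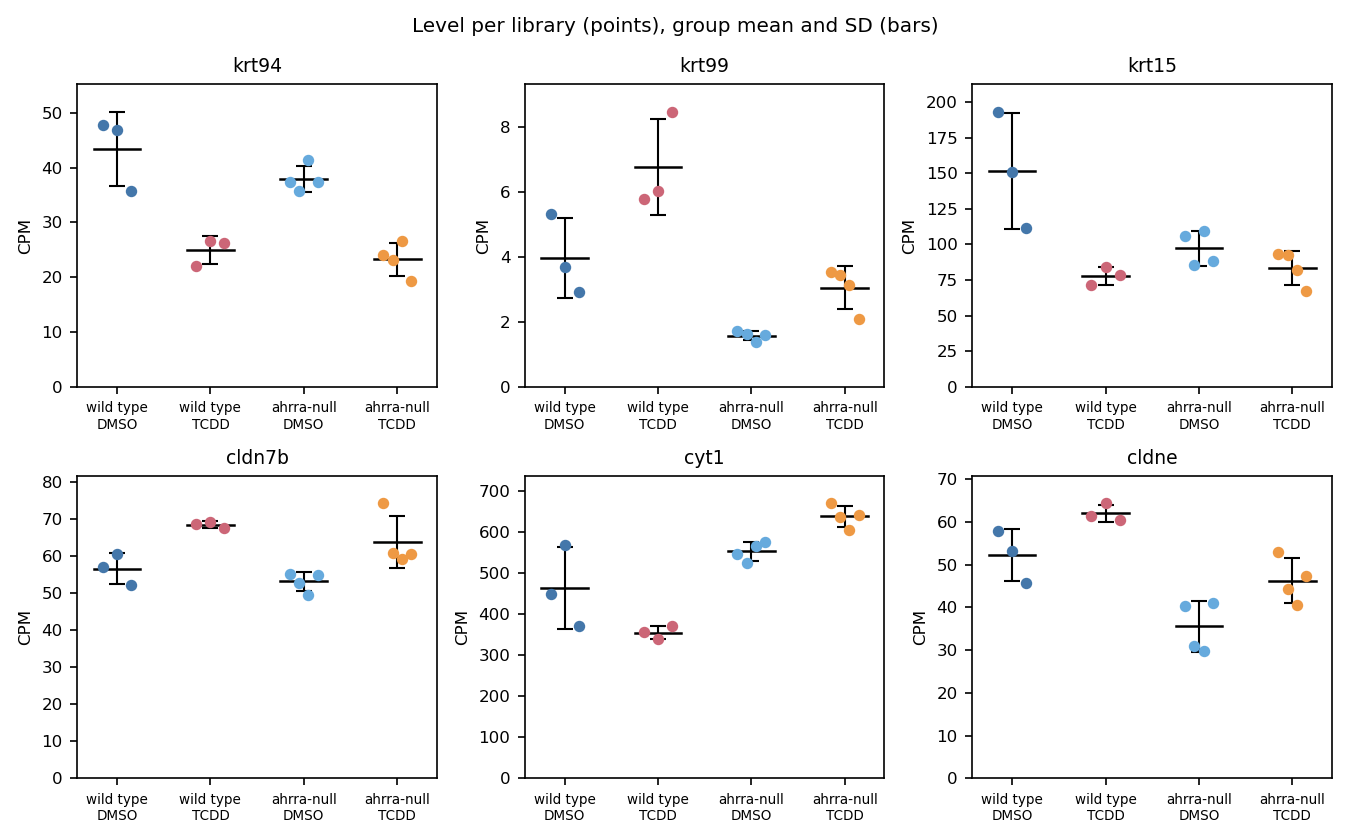
Levels of 6 members in CPM (vertical axes, starting at 0) by group, with 1 point per library, the mean as a horizontal line and the SD as bars. krt94 fell with TCDD in both lines (-0.81 and -0.70 on the log2 scale), and krt99 and cldn7b were called higher in ahrra-null and missed the threshold in wild type, with groups that did not overlap in either line.

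Most keratins other than krt94 and krt99 lay slightly lower with TCDD in wild type and near no difference in ahrra-null. The log2 fold change was below 0 for 16 of 19 keratins in wild type, with a median of -0.21, beside 10893 of 21606 genes and a median of -0.001 over all genes. In ahrra-null it was below 0 for 8 of 19, with a median of 0.02. Without wild-type DMSO replicate 2 or 3 the wild-type median was -0.13 or -0.14, and without replicate 4 it was -0.28. The direction of the ahrra-null median turned with the library left out, from -0.07 to 0.09. Apart from krt94, no keratin in wild type passed the test across all genes. Medians below 0 in wild type were not confined to keratins. Among the marker lists described below, the median with TCDD in wild type was -0.67 for liver, -0.30 for intestine and -0.185 for ionocytes. It was -0.12 for fast muscle, -0.11 for lens, -0.02 for neurons and -0.02 for notochord. Above 0 lay mucous cells (0.13), vascular endothelium (0.04), myelinating glia (0.03) and the epidermal list (0.008).

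krt15, a type I keratin chosen here after its values were seen, had the next smallest p of the keratins in wild type. It measured 193, 151 and 111 CPM with DMSO and 71.6, 83.9 and 78.4 CPM with TCDD (-0.96 ± 0.19, adjusted p = 0.0514). The groups did not overlap, and 4 of 12 alternatives called it. In ahrra-null it measured 106, 85.3, 109 and 88.2 CPM with DMSO and 93.1, 92.4, 81.8 and 67.6 CPM with TCDD (-0.21 ± 0.17, adjusted p = 0.719), and the groups overlapped. The difference between the lines was 0.75 ± 0.25 (unadjusted p = 0.0139, adjusted p = 0.948).

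cyt1, a type I keratin of the embryonic skin, had the smallest p of all members for a difference in TCDD response between the lines. It measured 450.0, 569 and 372 CPM in wild type with DMSO and 356, 339 and 371 CPM with TCDD (-0.39 ± 0.10, adjusted p = 0.12). In ahrra-null it measured 546, 524, 565 and 576 CPM with DMSO and 669.6, 637, 606 and 641 CPM with TCDD (0.21 ± 0.09, adjusted p = 0.405). The wild-type TCDD libraries were all below, and the ahrra-null TCDD libraries all above, the DMSO libraries of their own line. In wild type they nearly touched, with TCDD replicate 8 at 371 CPM and DMSO replicate 4 at 372 CPM. The difference was 0.59 ± 0.14 (unadjusted p = 0.000465, adjusted p = 0.726). It passed in DESeq2 (adjusted p = 0.0465) and without wild-type DMSO replicate 4 (adjusted p = 0.00205), and in none of the other 17 alternatives.

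No gene passed edgeR's test of the difference in TCDD response between the lines, over all genes (1117 at an unadjusted p under 0.05) or among the members (6 of 71). DESeq2 called 7 genes, of which 1, cyt1, is a member, and limma voom called 2 genes. The difference was above 0 for 17 of 19 keratins, with a median of 0.18, beside 11228 of 21606 genes and a median of 0.007 over all genes. Leaving out a library moved this median between 0.11 and 0.29. It comes from the same libraries as the keratin medians of each line given above, so it is not a separate observation. The keratins may also not be independent of each other, because reads of close copies can be split between neighbours. For the 36 claudins tested the median was 0.04, for the 8 armadillo proteins 0.05, and for the 6 plakins and desmosomal cadherins -0.01. Among the marker lists described below it was 0.28 for liver, 0.25 for intestine, 0.11 for fast muscle and 0.10 for ionocytes. For the other lists it lay between -0.08 (lens) and 0.09 (mucous cells).

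None of the 4 keratins with the highest counts passed the test with TCDD in either line. krt4 was at 6547 ± 434 (SD, n = 3) and 5582 ± 312 CPM (SD, n = 3) in wild type with DMSO and TCDD (-0.23 ± 0.10, adjusted p = 0.477). krt5, whose mammalian counterpart is the type II keratin of basal keratinocytes, was at 1958 ± 269 and 1741 ± 37.5 CPM (-0.17 ± 0.12, adjusted p = 0.808). krt1-19e differed by -0.24 ± 0.18 in wild type (adjusted p = 0.817). krt91 measured 1012, 892.5 and 657 CPM in wild type with DMSO and 597, 605 and 638 CPM with TCDD, groups that did not overlap (-0.48 ± 0.19, adjusted p = 0.504). In ahrra-null all 4 lay within 0.07 of no difference on the log2 scale.

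Of the claudins other than cldn7b, cldne and CLDN5 (ENSDARG00000014059) came nearest to a call in ahrra-null. cldne, a claudin of the larval skin, measured 40.3, 31.1, 29.8 and 41.1 CPM with DMSO and 52.9, 44.2, 40.6 and 47.4 CPM with TCDD (0.38 ± 0.11, adjusted p = 0.165). Its groups overlapped, and 2 of 14 alternatives called it. CLDN5, named after its values were seen and known as a claudin of blood vessels, had a difference of 0.30 ± 0.08 (adjusted p = 0.0964). In wild type these differences were 0.25 ± 0.12 (adjusted p = 0.648) and 0.26 ± 0.10 (adjusted p = 0.363). cldni differed by 0.19 ± 0.08 in wild type (adjusted p = 0.53) and by 0.22 ± 0.07 in ahrra-null (adjusted p = 0.207). cldn33b, also named after its values were seen, measured 1.60, 1.68 and 1.24 CPM in wild type with DMSO and 0.551, 0.816 and 0.428 CPM with TCDD (-1.34 ± 0.33, adjusted p = 0.0545), and 3 of 12 alternatives called it.

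**Figure D2:**
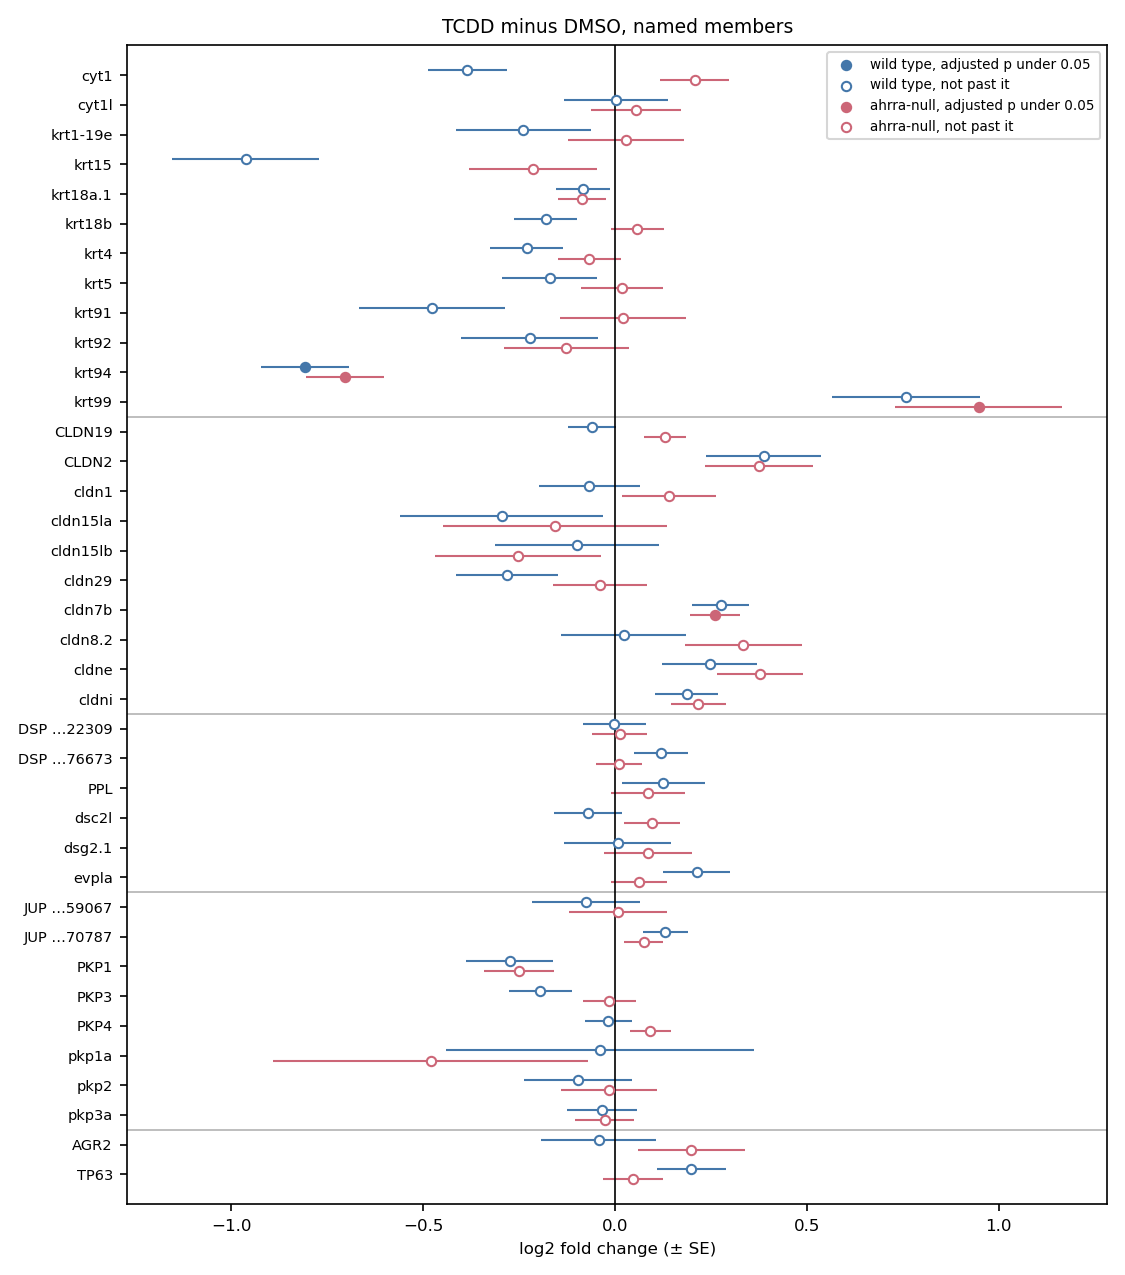
Log2 fold change of TCDD against DMSO (horizontal axis, bars are ± SE) for the named members in wild type and in ahrra-null, grouped from top to bottom as keratins, claudins, plakins and desmosomal cadherins, armadillo proteins, and AGR2 and TP63. Filled points, at an adjusted p under 0.05, are krt94 in both lines and krt99 and cldn7b in ahrra-null.

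Differences of desmosomal genes with TCDD did not pass the test. The 2 genes named DSP (desmoplakin) differed by -0.00 ± 0.08 (ENSDARG00000022309) and 0.12 ± 0.07 (ENSDARG00000076673) in wild type, and by 0.01 ± 0.07 and 0.01 ± 0.06 in ahrra-null. PKP1, a plakophilin of stratified epithelia, differed by -0.28 ± 0.11 in wild type (adjusted p = 0.457) and by -0.25 ± 0.09 in ahrra-null (adjusted p = 0.268). TP63, the transcription factor of the basal epidermal lineage, differed by 0.20 ± 0.09 (adjusted p = 0.556) and 0.05 ± 0.08 (adjusted p = 0.885).

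More members were called between the lines than between the exposures. In ahrra-null with DMSO 6 members were higher and 15 lower than in wild type, 29.6% of 71, beside 21.6% of all genes tested (9.91% higher, 11.7% lower). With TCDD 11 were higher and 10 lower, also 29.6%, beside 25.8% of all genes (12.7% higher, 13.1% lower). The counts of lower members moved with single libraries. Leaving out 1 library gave 8 to 20 lower with DMSO, with 8 in the absence of wild-type DMSO replicate 2 and 9 in that of replicate 3 or of ahrra-null DMSO replicate 11. It gave 6 to 13 lower with TCDD, with 6 in the absence of wild-type TCDD replicate 6. At 2-fold or more, 2 members stood with DMSO and 3 with TCDD, beside 3.07% and 2.71% of all genes. Every plakin or desmosomal cadherin called was higher, the claudins called were lower apart from CLDN19, and keratins and armadillo proteins were called in both directions. The comparisons with DMSO and with TCDD set different libraries against each other. They come from the same fit, with a shared estimate of the spread, and compare the same lines, so they are not independent. Loss of ahrra cannot be told apart here from other differences between the lines or their clutches. Of the 21 members called in each, 15 were called in both (71.4% of each list), all in the same direction, 6 higher and 9 lower. Over all genes 3258 were called in both, 69.8% of those called with DMSO and 58.4% of those called with TCDD. Of these 3258 genes, 3256 also went in the same direction, 1560 higher and 1696 lower. The median difference was -0.06 with DMSO and -0.004 with TCDD, beside -0.006 and -0.003 over all genes.

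Of the 6 plakins and desmosomal cadherins, 3 were called higher in ahrra-null in both comparisons. None of the 6 was called lower by edgeR with all libraries. Over all genes, 9.91% were called higher with DMSO and 12.7% with TCDD, but the count here rests on 6 genes. The 3 called are evpla, dsc2l and dsg2.1. evpla is an envoplakin that joins keratin to the cell border of the outer skin. The cadherins dsc2l and dsg2.1 lie next to each other in the genome. evpla measured 26.6, 30.4 and 31.3 CPM in wild type, against 42.0, 40.6, 36.7 and 43.5 CPM in ahrra-null with DMSO (0.47 ± 0.08, adjusted p = 0.000235). With TCDD it measured 35.4, 37.4 and 29.5 against 42.8, 44.6, 39.0 and 43.9 CPM (0.32 ± 0.08, adjusted p = 0.00465). No library of one line reached the range of the other under either treatment. The call with TCDD was lost without wild-type TCDD replicate 8 (adjusted p = 0.0535).

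dsc2l measured 17.8, 17.3 and 18.03 CPM in wild type, against 23.0, 21.9, 19.4 and 25.9 CPM in ahrra-null with DMSO (0.35 ± 0.08, adjusted p = 0.00308). With TCDD the levels were 17.1, 16.4 and 17.1 against 24.7, 23.2, 24.4 and 24.2 CPM (0.52 ± 0.08, adjusted p = 5.74e-05). All ahrra-null libraries lay above all wild-type libraries. dsg2.1 was higher by 0.41 ± 0.13 with DMSO (adjusted p = 0.0304) and by 0.48 ± 0.13 with TCDD (adjusted p = 0.00944). With DMSO its groups overlapped and 6 of 13 alternatives did not call it.

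The other 3 of these 6 were not called. The DSP genes differed by at most 0.11 on the log2 scale between the lines under either treatment. PPL, a periplakin that partners envoplakin in the outer skin, measured 160, 144 and 114 CPM in wild type, against 129, 113, 110 and 130 CPM in ahrra-null with DMSO, and these groups overlapped (-0.21 ± 0.10, adjusted p = 0.169). With TCDD its difference was -0.25 ± 0.10 (adjusted p = 0.0892). PPL was called lower in 2 of 13 alternatives with DMSO and in 2 of 13 with TCDD.

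Among the armadillo proteins, the plakophilins pkp3a and PKP1 were higher in ahrra-null in both comparisons. pkp3a measured 37.4, 39.2 and 39.0 CPM in wild type, against 57.0, 49.4, 46.0 and 61.9 CPM in ahrra-null with DMSO (0.48 ± 0.09, adjusted p = 0.000436). In the TCDD libraries it measured 39.4, 38.2 and 35.2 against 56.5, 54.4, 46.6 and 53.1 CPM (0.48 ± 0.09, adjusted p = 0.000284). The lines did not overlap under either treatment. PKP1 measured 9.12, 7.80 and 8.21 CPM in wild type, against 11.5, 11.98, 10.5 and 12.8 CPM in ahrra-null with DMSO (0.48 ± 0.10, adjusted p = 0.0014), and its difference with TCDD was 0.51 ± 0.11 (adjusted p = 0.000988). Its groups did not overlap under either treatment.

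PKP3 was called higher with TCDD only (0.23 ± 0.08, adjusted p = 0.0324, lost in 8 of 13 alternatives), and its difference with DMSO was 0.05 ± 0.08 (adjusted p = 0.715). Whether these differ is the test between the lines above, in which PKP3 did not pass (0.18 ± 0.11, adjusted p = 0.963). JUP (ENSDARG00000070787), a plakoglobin, was lower by 0.16 ± 0.06 with DMSO (adjusted p = 0.0428) and by 0.21 ± 0.05 with TCDD (adjusted p = 0.00555), and the DMSO call was lost in 7 of 13 alternatives. PKP4, a relative of the plakophilins, was lower with DMSO by 0.19 ± 0.06 (adjusted p = 0.0172, lost in 3 of 13). The second JUP gene (ENSDARG00000059067), pkp2 and pkp1a were not called in any comparison with all libraries, and the second JUP gene was called in 1 of 13 alternatives with DMSO.

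**Figure D3:**
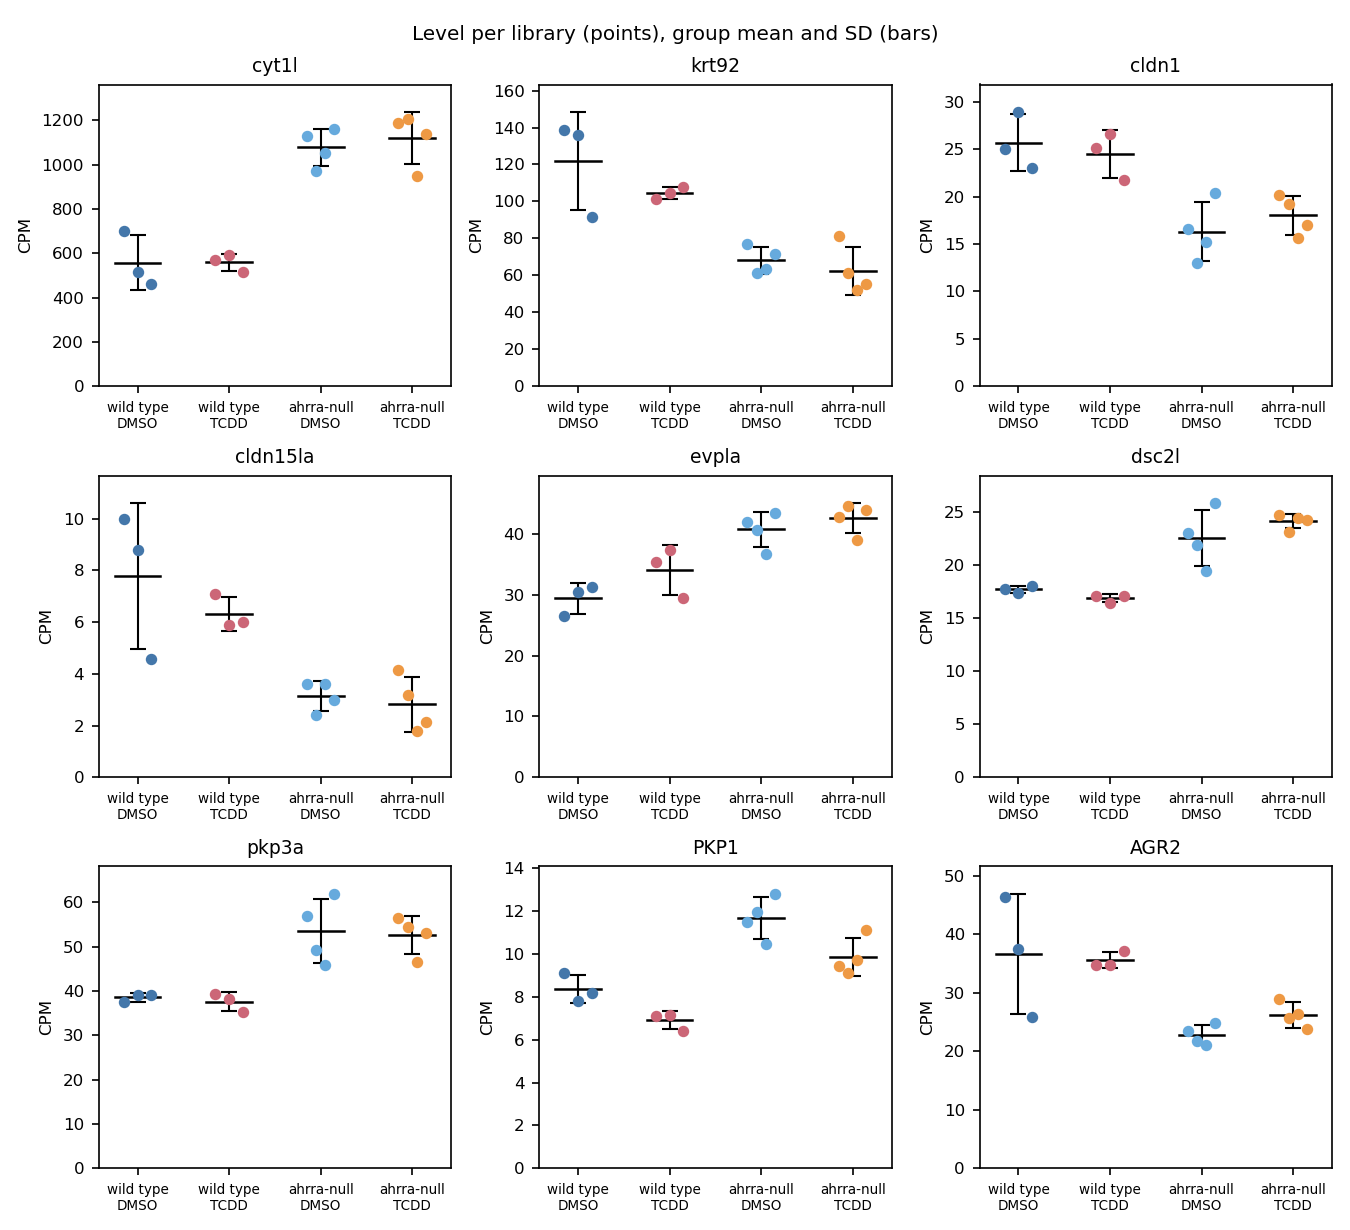
Levels of 9 members in CPM (vertical axes, starting at 0) by group, with 1 point per library, the mean as a horizontal line and the SD as bars. cyt1l, evpla, dsc2l, pkp3a and PKP1 were higher, and krt92, cldn1, cldn15la and AGR2 lower, in ahrra-null under both treatments.

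No claudin was higher in ahrra-null with DMSO, where 7 of 36 were lower (19.4%, beside 11.7% of all genes). With TCDD 1 was higher and 5 were lower (13.9%, beside 13.1% of all genes). cldn1, a barrier claudin of the skin, measured 25.1, 28.9 and 23.0 CPM in wild type, against 16.6, 13.03, 15.2 and 20.4 CPM in ahrra-null with DMSO (-0.65 ± 0.13, adjusted p = 0.00167). Under TCDD its values were 25.1, 26.6 and 21.7 against 20.2, 19.2, 15.6 and 16.96 CPM (-0.44 ± 0.13, adjusted p = 0.0166, lost in 2 of 13 alternatives). Every ahrra-null library was below every wild-type library. cldne measured 57.9, 53.2 and 45.8 CPM in wild type with DMSO, where its ahrra-null values given above were lower (-0.55 ± 0.12, adjusted p = 0.0044). Its wild-type levels with TCDD were 61.4, 64.3 and 60.4 CPM, and it was again lower in ahrra-null (-0.42 ± 0.12, adjusted p = 0.0156, lost in 1 of 13 alternatives). Its neighbour cldnf was lower with DMSO (-0.79 ± 0.26, adjusted p = 0.0337, lost in 5 of 13 alternatives), and it is named beyond the rule because it adjoins cldne.

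cldn15la, a claudin of the gut epithelium, showed the largest fall among the claudins. It measured 9.97, 8.77 and 4.59 CPM in wild type, against 3.60, 2.42, 3.62 and 2.98 CPM in ahrra-null with DMSO (-1.30 ± 0.27, adjusted p = 0.00353). With TCDD it measured 7.08, 5.87 and 5.99 against 4.16, 3.17, 1.80 and 2.14 CPM (-1.16 ± 0.28, adjusted p = 0.00787). The groups did not overlap, although wild-type DMSO replicate 4 stood well below replicates 2 and 3. Its relative cldn15lb was called lower with TCDD (-0.69 ± 0.22, adjusted p = 0.0228, lost in 3 of 13 alternatives) and not with DMSO (-0.54 ± 0.21, adjusted p = 0.068). CLDN2, in mammals a claudin of cation-leaky epithelia, was lower by 0.48 ± 0.15 with DMSO (adjusted p = 0.0248) and by 0.49 ± 0.14 with TCDD (adjusted p = 0.0129). Its DMSO call was lost in 5 of 13 alternatives, with adjusted p up to 0.166, and its TCDD call in 2 of 13.

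Further claudins were called under a single treatment, and none of them passed the test of the difference in TCDD response between the lines. cldn8.2 (-0.70 ± 0.16, adjusted p = 0.00539) and cldn29 (-0.41 ± 0.13, adjusted p = 0.0213) were lower with DMSO. The call of cldn29 was lost in 3 of 13 alternatives, with adjusted p up to 0.198. CLDN19 was the claudin called higher, with TCDD, at 77.8, 71.3, 74.5 and 77.4 CPM in ahrra-null and 63.9, 63.7 and 64.3 CPM in wild type (0.23 ± 0.06, adjusted p = 0.00517). cldni, with the highest claudin count, measured 159, 169 and 140 CPM in wild type, against 145, 121, 129 and 148 CPM in ahrra-null with DMSO, groups that overlapped (-0.20 ± 0.08, adjusted p = 0.0665). It was called lower in 3 of 13 alternatives with DMSO and in 3 of 13 with TCDD. With all libraries, cldn7b differed by 0.10 or less on the log2 scale between the lines. Without ahrra-null TCDD replicate 13 it was called lower in ahrra-null with TCDD (-0.19, adjusted p = 0.0284), the only 1 of 13 alternatives to call it.

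AGR2, an endoplasmic reticulum protein of mucus-secreting and other epithelial cells, was lower in ahrra-null. It measured 46.4, 37.5 and 25.9 CPM in wild type, against 23.5, 21.8, 21.1 and 24.8 CPM in ahrra-null with DMSO (-0.68 ± 0.14, adjusted p = 0.00471). With TCDD the levels were 34.8, 34.8 and 37.1 against 29.0, 25.7, 26.3 and 23.8 CPM (-0.44 ± 0.14, adjusted p = 0.0386, lost in 7 of 13 alternatives). The groups did not overlap, with wild-type DMSO replicate 4 only just above the highest ahrra-null library. TP63 differed by 0.09 ± 0.09 with DMSO (adjusted p = 0.478) and by -0.06 ± 0.09 with TCDD (adjusted p = 0.656).

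**Figure D4:**
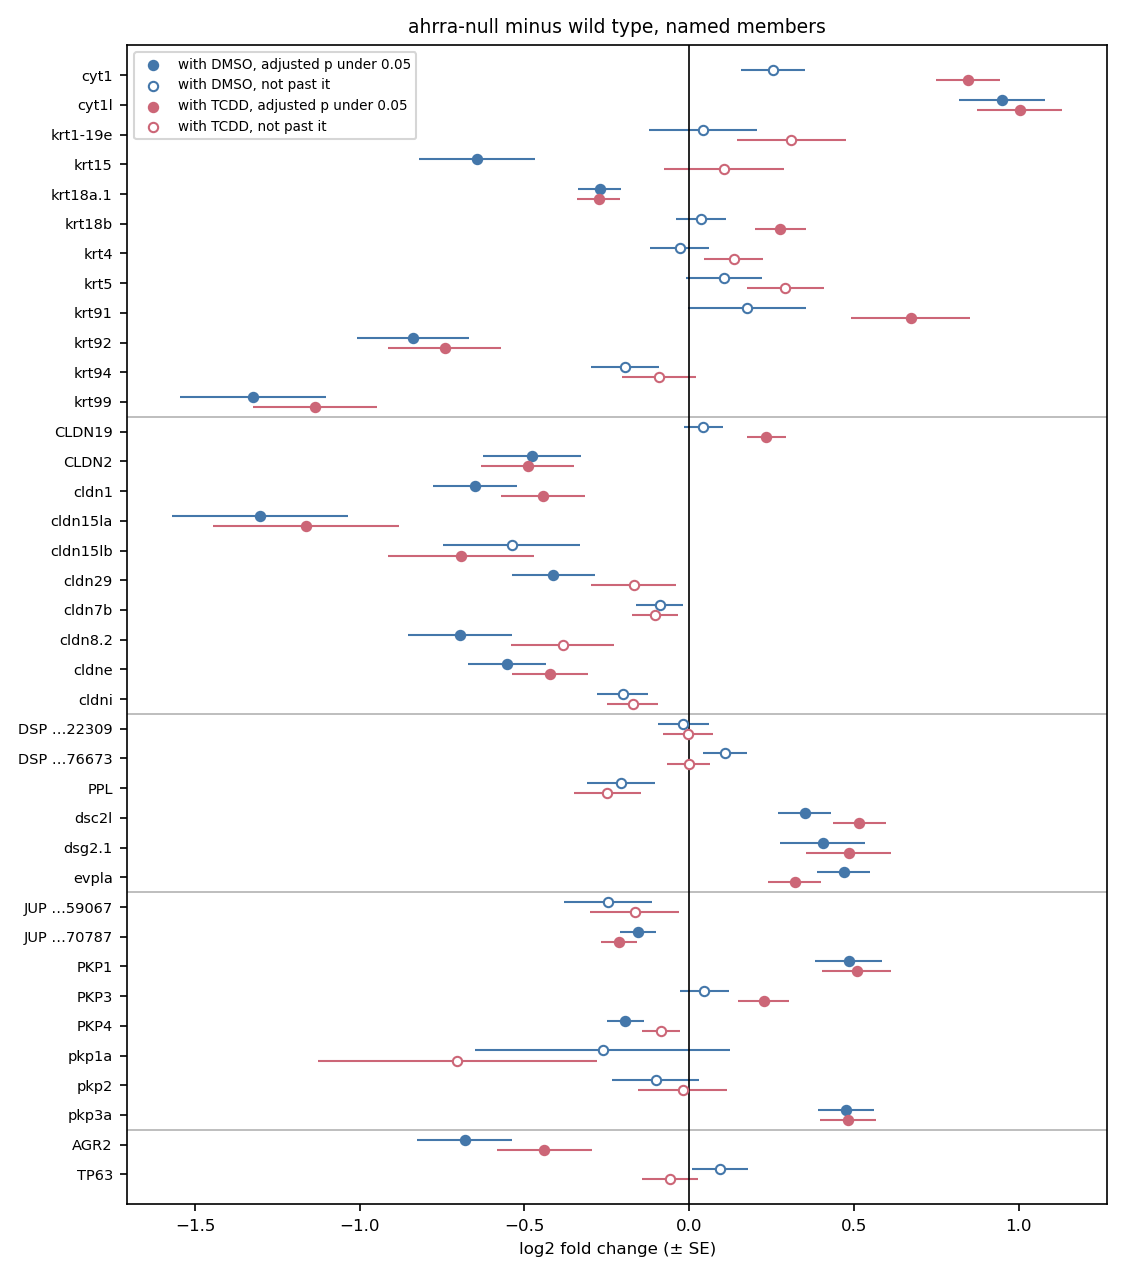
Log2 fold change of ahrra-null against wild type (horizontal axis, bars are ± SE) for the named members, with DMSO and with TCDD, in the same order of groups of genes. Of the 71 members tested, 15 were called in both comparisons, all in the same direction, which is 71.4% of each list, beside 69.8% and 58.4% over all genes. Over all genes, 3256 of the 3258 called in both also went in the same direction.

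Of 19 keratins, 1 was higher (5.26%) and 5 were lower (26.3%) in ahrra-null with DMSO, beside 9.91% and 11.7% of all genes. With TCDD 4 were higher (21.1%) and 3 lower (15.8%), beside 12.7% and 13.1% of all genes. krt99 had the largest fall: the wild-type values given above, 2.92 CPM or more, exceeded every ahrra-null value with DMSO (-1.33 ± 0.22, adjusted p = 0.000195), and the same held with TCDD (-1.14 ± 0.19, adjusted p = 0.000124). krt18a.1, whose mammalian counterpart is the type I keratin of simple epithelia, was lower by 0.27 ± 0.07 in both comparisons (adjusted p = 0.00485 and 0.00359), and leaving out wild-type DMSO replicate 3 ended the DMSO call. Its paralog krt18b was higher with TCDD (0.28 ± 0.08, adjusted p = 0.0107, lost without wild-type TCDD replicate 6). krt15 was lower with DMSO (-0.64 ± 0.18, adjusted p = 0.0253, lost in 5 of 13 alternatives).

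cyt1l, a close relative of cyt1, was the keratin that rose most. It measured 699, 515 and 459.8 CPM in wild type, against 1127, 971, 1051 and 1160.0 CPM in ahrra-null with DMSO (0.95 ± 0.13, adjusted p = 0.000245). In the TCDD libraries it measured 567, 592 and 516 against 1186, 1204, 947 and 1138 CPM (1.00 ± 0.13, adjusted p = 0.000108). Every ahrra-null library stood well above every wild-type library. cyt1 was higher with TCDD (0.85 ± 0.10, adjusted p = 1.23e-05), with the values given above, and differed by 0.25 ± 0.10 with DMSO (adjusted p = 0.0719). With DMSO it was called higher by DESeq2 (0.26, adjusted p = 0.039) and without wild-type DMSO replicate 3 (0.43, adjusted p = 0.000357). krt91 was higher with TCDD (0.67 ± 0.18, adjusted p = 0.0189, lost in 2 of 13 alternatives), and krt4, krt5 and krt1-19e were not called in any comparison by edgeR with all libraries. Between the lines with TCDD, krt5 was called in 3 of 13 alternatives, and krt4 and krt1-19e in 1 each.

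On one side cyt1l adjoins krt92, which was lower in ahrra-null, and on the other cyt1, which was called higher with TCDD. In the gene order of RefSeq (assembly GRCz12tu, used only for neighbours), 7 keratins follow each other with no other coding gene between them: krt1-19d, krt1-19e, krt92, cyt1l, cyt1, krt17 and krt91. krt92, beside cyt1l, measured 139, 136 and 91.6 CPM in wild type, against 76.8, 61.1, 63.2 and 71.8 CPM in ahrra-null with DMSO (-0.84 ± 0.17, adjusted p = 0.00538). Under TCDD its values were 101, 105 and 108 against 81.1, 61.0, 52.3 and 55.6 CPM (-0.74 ± 0.17, adjusted p = 0.00881). The lines did not overlap under either treatment.

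The make-up of this block differed between the lines, and its total overlapped between them with DMSO but not with TCDD. With DMSO the 7 genes summed to 4273, 3966 and 3070.0 CPM in wild type and to 4643, 3670.0, 4168 and 5016 CPM in ahrra-null. With TCDD they summed to 3168, 3248 and 3073 CPM in wild type and to 5237, 4567, 3978 and 4359 CPM in ahrra-null. cyt1l was 12.98% to 18.2% of the sum in wild type and 22.7% to 26.5% in ahrra-null. krt92 was 2.98% to 3.50% in wild type and 1.28% to 1.66% in ahrra-null. krt17 was 4.37% to 6.58% and 1.66% to 3.55%, and krt1-19d 1.97% to 3.33% and 1.03% to 1.48%. None of these 4 shares overlapped between the lines, and those of krt1-19e, cyt1 and krt91 did. How often such shares separate for other runs of genes was not tested. Shares of one sum are not independent, because a rise of one gene lowers the shares of the others. Over all libraries, the levels of krt17 and krt1-19d in CPM overlapped between the lines. For single genes, krt1-19d was called lower with DMSO (-0.62 ± 0.19, adjusted p = 0.0392, lost in 7 of 13 alternatives) and krt17 was not called (-0.73 ± 0.32, adjusted p = 0.143 with DMSO), and both are named here because they belong to the block. Without strand, and with reads of close copies perhaps lost or split between neighbours, levels of these similar genes are uncertain, and how sequence differences between the lines affect the mapping of reads to them was not tested.

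**Figure D5:**
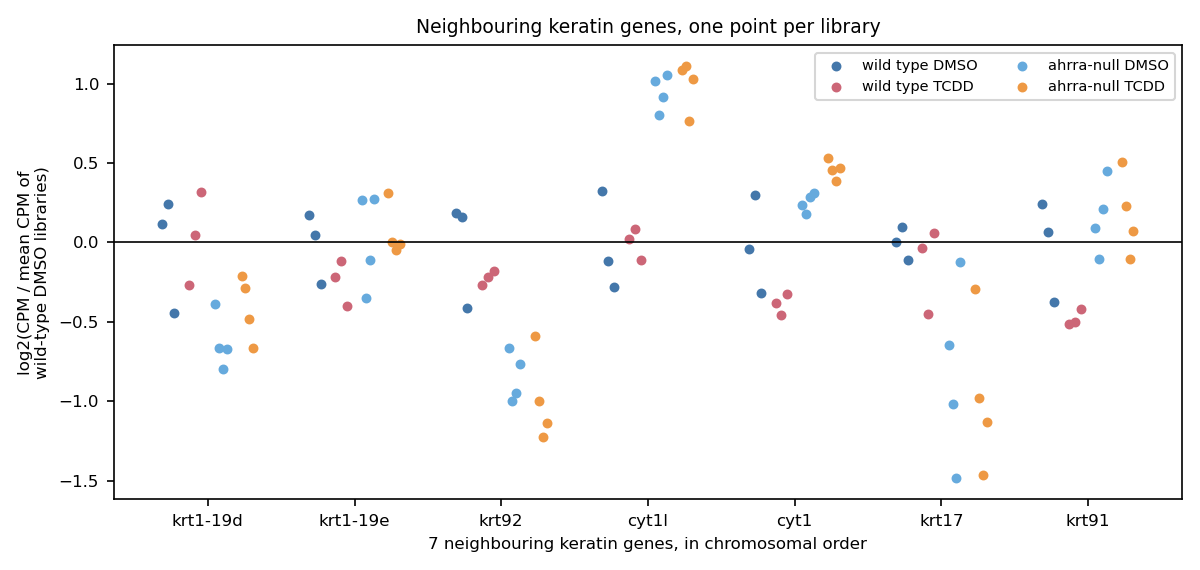
Log2 ratio of CPM in each library to the mean CPM of the wild-type DMSO libraries (vertical axis) for 7 neighbouring keratin genes in chromosomal order (horizontal axis), with 1 point per library coloured by group. All 8 ahrra-null libraries lie above all 6 wild-type libraries for cyt1l and below them for krt92, its neighbour.

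Other runs of neighbours in the same gene order held members that went together or apart. In the run of krt93, krt94, krt98, krt15 and krt99, TCDD lowered krt94 in both lines while krt99 was called higher in ahrra-null, and krt98 was near the floor of detection at 0.526 to 1.01 CPM. cldne and cldnf lie between cldnj and cldna, which were not called in any comparison or alternative. dsc2l and dsg2.1, both higher in ahrra-null, are a pair of neighbours. No member among the 64 placed by symbol lay on the chromosome of ahrra.

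Of 47 other genes of epidermal adhesion, barrier and differentiation, 1 was higher and 11 were lower in ahrra-null with DMSO, 25.5% called beside 21.6% of all genes. With TCDD 2 were higher and 11 lower, 27.7% beside 25.8%. The 11 called lower were 23.4% of the list in each comparison, beside 11.7% and 13.1% of all genes. The other 35 and 34 did not pass, and the medians over the list were -0.16 and -0.14. col17a1b, a collagen of hemidesmosomes, was higher in both comparisons (0.41 ± 0.10, adjusted p = 0.00506 and 0.41 ± 0.10, adjusted p = 0.00392). The mean of its paralog col17a1a lay the other way, at 164 CPM in wild type and 121 CPM in ahrra-null with DMSO. With TCDD the col17a1a means were 136 and 117 CPM, and its groups overlapped under both treatments. grhl3, a grainyhead-like transcription factor of epidermal barrier formation, was lower in both (-0.74 ± 0.16, adjusted p = 0.00169 and -0.65 ± 0.15, adjusted p = 0.00285). So were its relative GRHL1, with TCDD by 0.74 ± 0.17 (adjusted p = 0.00251), and icn, a calcium-binding protein gene of skin, with TCDD by 0.56 ± 0.10 (adjusted p = 0.00112). PERP, a desmosomal membrane protein, was lower with DMSO (-0.25 ± 0.06, adjusted p = 0.005). With TCDD as the factor, none of the 47 was called in wild type (beside 0.856% of all genes). In ahrra-null only cdh1, the E-cadherin gene of adherens junctions, was called, and it was higher (0.23 ± 0.06, adjusted p = 0.0405). This is 2.13% of the list, beside 0.815% of all genes called higher, and rests on 1 gene.

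Some markers of other epithelial cells were called lower in ahrra-null, and most did not pass. Of 20 ionocyte genes, 7 were lower with DMSO (35.0%, beside 11.7% of all genes) and 4 with TCDD (beside 13.1% of all genes), and none was called higher. Their summed level ranged from 1059 to 1221 CPM and from 1113 to 1146 CPM in wild type with DMSO and TCDD, and from 965 to 1043 CPM and from 994 to 1083 CPM in ahrra-null. ca2, a carbonic anhydrase of ionocytes, was lower by 0.60 ± 0.13 with DMSO (adjusted p = 0.00383) and by 0.76 ± 0.13 with TCDD (adjusted p = 0.000592). Of 6 mucous cell genes tested, 2 were lower with DMSO (33.3%, beside 11.7% of all genes) and 1 with TCDD (16.7%, beside 13.1%). The other 4 and 5 did not pass. That called in both was muc5.2, a gel-forming mucin (-0.80 ± 0.17, adjusted p = 0.00246 and -0.62 ± 0.16, adjusted p = 0.00806). The summed level of the 7 mucous genes ranged from 54.3 to 78.1 CPM and from 69.7 to 76.6 CPM in wild type, and from 52.0 to 65.3 CPM and from 64.1 to 68.5 CPM in ahrra-null, so the lines overlapped with DMSO. Their part in the differences of the members was not tested.

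Of 7 intestinal genes tested, 2 were lower in ahrra-null with DMSO (28.6%, beside 11.7% of all genes) and 1 with TCDD (14.3%, beside 13.1%), and the other 5 and 6 did not pass. FABP2, a fatty acid carrier of enterocytes, was lower by 1.44 ± 0.32 with DMSO (adjusted p = 0.0097) and by 1.07 ± 0.33 with TCDD (adjusted p = 0.0343, lost in 6 of 13 alternatives). The summed level of the 9 intestinal genes ranged from 55.8 to 126 CPM in wild type with DMSO, from 66.2 to 73.8 CPM in wild type with TCDD, from 43.9 to 53.5 CPM in ahrra-null with DMSO and from 38.2 to 60.5 CPM in ahrra-null with TCDD. Of 8 liver genes, 5 were lower in ahrra-null with DMSO (62.5%, beside 11.7% of all genes) and 2 with TCDD (beside 13.1% of all genes). The other 3 and 6 did not pass. The hormone carrier TTR was lower with TCDD in the wild-type line (-1.68 ± 0.37, adjusted p = 0.0321). Its level there was low, at 3.41, 3.01 and 1.08 CPM with DMSO and 0.636, 0.87 and 0.856 CPM with TCDD. DMSO replicate 4 thus lay close to the TCDD libraries. TTR was the 1 liver gene of 8 called in that comparison, beside 0.375% of all genes called lower. Liver sums ranged from 194 to 426 CPM and from 174 to 190 CPM in wild type, and from 170 to 218 CPM and from 96.5 to 176 CPM in ahrra-null. Their part in the fall of cldn15la was not tested.

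Lists of other tissues gave a mixed picture. No gene of vascular endothelium or of myelinating glia was called in any comparison, and of the neurons only gap43 was called (-0.16 ± 0.06 between the lines with TCDD, adjusted p = 0.0403). Between the lines, 9.91% of all genes were higher in ahrra-null with DMSO and 12.7% with TCDD, and 11.7% and 13.1% were lower. Of 9 fast muscle genes, 2 were higher in ahrra-null with DMSO (22.2%) and 4 with TCDD (44.4%). Of 9 lens genes, 6 were higher with DMSO (66.7%) and 4 with TCDD (44.4%). Of 6 notochord genes 2 were higher (33.3%) and 1 was lower (16.7%) in each comparison. TCDD itself lowered 1 lens gene in wild type (11.1%, beside 0.375% of all genes) and 3 in ahrra-null (33.3%, beside 0.361%). It also lowered 1 of 20 ionocyte genes, clcn2c, in ahrra-null (5.0%, -1.01 ± 0.22, adjusted p = 0.0326). No listed gene was at 0 in all libraries, and muc2.2, FABP6 and apoa4b.3 were at 0 in 5, 3 and 4 libraries.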

How the data were processed

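Whole-number read counts per Ensembl gene were used as the authors deposited them, not normalized. The submitters' processing notes name the build GRCz10 and cutadapt, TopHat2, SAMtools, HTSeq and edgeR, and leave versions and counting settings not given in the sources used here. Groups come from the sample titles. Members, gene lists and tests were chosen with earlier results of these data known. Symbols were found for 26269 of 32105 identifiers. filterByExpr (minimum count 10) kept 21606 genes with 99.93% of the counts and set aside 10499. A robust quasi-likelihood fit (edgeR 4.0.16, limma 3.58.1, R 4.3.3, TMM, prior count 0.125) covered all 14 libraries and 4 groups, with 5 contrasts. The common biological coefficient of variation was 7.19%. SEs approximate the fit's error as |log2 fold change| over the root of its F, and intervals are 1.96 SE to each side. The code was tested on simulated data. None of the 18 replicate pairs looked like repeat files (chi-square per degree of freedom from 2.44 to 17.3).

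Named genes are, per contrast, the called members (at most 12 per direction by adjusted p), krt94, cyt1, all members that are no keratin or claudin, and the 4 keratins and 4 claudins with the highest mean CPM. From 11 marker lists (140 symbols) called genes are named, at most 4 per list and contrast. Alternatives were median-ratio scaling, DESeq2 1.42.0, limma voom with quality weights, no filter beyond 1 read, a filter of 1 CPM in 3 libraries, the libraries of a contrast alone, a 2-fold threshold, and leaving out each library.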

Additional observations from a re-analysis of the deposited data

Results flagged for a closer look

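Each of 38 named members was examined in the 2 groups of 4 libraries, 76 groups of values in all, for a library whose gap to the nearest other passed Dixon's 95% critical value as a share of the group's range. Chance gives about 1 such group in 20, and 3 were found. In ahrra-null with TCDD, cldn7b measured 74.2 CPM in replicate 13 and 59.3 to 60.7 CPM in the others (0.905 of the range). In the same library, krt1-19e measured 1857 CPM, against 1449 to 1497 CPM in the others (0.883 of the range). In ahrra-null with DMSO, krt4 measured 8022 CPM in replicate 12 and 5808 to 6025 CPM in the others (0.902 of the range).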

How the results depend on the processing

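Of the values of single named members under alternatives, 2000 kept their side of the threshold, 73 lost the call and 27 gained it. No value of a called result changed sign, and 116 of 1526 values of results that were not called did, none of them called. Counts of members called moved as follows. For TCDD in wild type, 0 higher became 1 with limma voom and with no filter, and 1 lower became 2 with median-ratio scaling and with no filter, 3 with DESeq2, 4 with limma voom and 0 at 2-fold. Leaving out a library gave 0 to 1 higher and 1 to 4 lower, with 4 lower without wild-type DMSO replicate 4. For TCDD in ahrra-null, 2 higher became 1 with only the libraries of the contrast and 0 at 2-fold, and 1 lower became 0 at 2-fold. Leaving out a library gave 0 to 3 higher and 1 lower throughout. For the lines with DMSO, 6 higher became 0 and 15 lower became 2 at 2-fold, and 15 lower became 9 with only the libraries of the contrast. Leaving out a library gave 5 to 7 higher and 8 to 20 lower, with 8 or 9 lower without wild-type DMSO replicate 2 or 3 or ahrra-null DMSO replicate 11. For the lines with TCDD, 11 higher became 1 and 10 lower became 2 at 2-fold. Leaving out a library gave 8 to 12 higher and 6 to 13 lower, with 6 lower without wild-type TCDD replicate 6. For the difference in response, 0 higher became 1 with DESeq2 and 0 to 1 when a library was left out. Scaled by total counts, the summed level in wild type with TCDD was 830.9 CPM for claudins (main 813.9) and 265.7 CPM for armadillo proteins (main 260.2). The cause of these moves was not tested.

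Over all genes, TCDD in wild type gave 185 called genes, and 82 to 388 under alternatives (fewest when wild-type TCDD replicate 6 was left out, most when wild-type DMSO replicate 4 was). TCDD in ahrra-null gave 254, and 141 to 374 (141 without replicate 13). The lines with DMSO gave 4670, and 2844 to 5019 (2844 without wild-type DMSO replicate 2), and with TCDD 5577, and 3931 to 7396. The difference in response gave 0, and up to 10 without wild-type DMSO replicate 4. Medians by role and sums without a library were added after seeing the data. No paired analysis was possible because the groups share no replicate number. With 3 or 4 libraries a group, small differences of low-count members such as krt98 and pkp1a were not detectable at this depth.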
